A study of Mus musculus with 17 samples.

Results

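The PGC-1 coactivators and the regulators of mitochondrial biogenesis, 10 genes in all (Ppargc1a, Ppargc1b, Pprc1, Esrra, Esrrb, Esrrg, Nrf1, Gabpa, Tfam and Perm1), were followed in the mouse diaphragm. They were taken by symbol from a table of 47643 gene symbols. All 10 were present, and all 10 passed the filter of at least 1 TPM (a transcript level corrected for gene length and library size) in at least 3 samples, which kept 13305 genes.

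The diaphragms came from 17 male C57BL/6J mice aged 4 months. Control mice (n = 5) carried no tumor and received mock injections. Control + rFibcd1 mice (n = 5) carried no tumor and received rFibcd1, a recombinant piece of the secreted muscle protein Fibcd1, by injection into the peritoneal cavity. LLC mice (n = 3) carried tumors of Lewis lung carcinoma cells placed under the skin of both flanks and received mock injections, and LLC + rFibcd1 mice (n = 4) carried the same tumors and received rFibcd1. A mouse was the unit of replication. RNA was taken from whole muscle, so fewer cells of a type and less RNA per cell cannot be told apart.

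PGC-1 coactivators do not bind DNA themselves but dock on transcription factors and recruit the machinery that opens chromatin and starts transcription. The family holds Ppargc1a (PGC-1alpha), which in muscle responds to exercise, cold and fasting, Ppargc1b (PGC-1beta), a close relative that sustains basal oxidative metabolism, and Pprc1 (PRC), a more distant relative linked to growth signals. Among the factors they dock on are the estrogen-related receptors Esrra, Esrrb and Esrrg, orphan nuclear receptors that bind genes of oxidative metabolism, and the nuclear respiratory factors NRF-1 (Nrf1) and NRF-2, whose DNA-binding subunit is Gabpa. Tfam, itself a target of the respiratory factors, enters the mitochondrion to coat and transcribe its DNA. Perm1 is a muscle protein that is induced by PGC-1 and the estrogen-related receptors and acts on a part of their targets.

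The promoters of the 4 members that differed between LLC and Control, and that of Perm1, are shown because they carry or lack the letters these regulators are known to bind. RefSeq windows of 300 bases around the transcript start on GRCm38.p6 were found for 9 of the 10 members (14 windows); Ppargc1b had none. They are written 5′ to 3′ on the gene's strand, with motif matches in capitals. Positions are Ppargc1a chr5:51567676-51567975 (minus strand), Esrra chr19:6921759-6922058 (minus strand), Tfam chr10:71237995-71238294 (minus strand), Nrf1 chr6:30047738-30048037 (plus strand, the first of its 2 windows) and Perm1 chr4:156215677-156215976 (plus strand).
Ppargc1a: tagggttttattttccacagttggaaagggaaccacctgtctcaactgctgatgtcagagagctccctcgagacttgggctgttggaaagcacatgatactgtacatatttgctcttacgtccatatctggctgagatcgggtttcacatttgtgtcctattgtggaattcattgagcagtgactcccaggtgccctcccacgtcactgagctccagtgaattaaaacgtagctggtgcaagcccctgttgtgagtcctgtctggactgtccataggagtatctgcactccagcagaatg
Esrra: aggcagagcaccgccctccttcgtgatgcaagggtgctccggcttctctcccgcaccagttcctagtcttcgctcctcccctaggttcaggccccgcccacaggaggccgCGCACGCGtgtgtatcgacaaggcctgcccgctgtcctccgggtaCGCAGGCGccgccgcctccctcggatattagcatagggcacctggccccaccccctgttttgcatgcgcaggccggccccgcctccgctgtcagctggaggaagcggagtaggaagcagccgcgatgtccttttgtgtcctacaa
Tfam: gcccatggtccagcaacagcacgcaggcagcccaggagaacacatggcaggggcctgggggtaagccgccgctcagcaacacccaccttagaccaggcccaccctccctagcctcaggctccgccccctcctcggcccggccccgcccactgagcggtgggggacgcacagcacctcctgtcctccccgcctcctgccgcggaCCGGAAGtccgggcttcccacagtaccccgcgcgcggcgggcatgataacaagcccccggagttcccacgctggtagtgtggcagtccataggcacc
Nrf1: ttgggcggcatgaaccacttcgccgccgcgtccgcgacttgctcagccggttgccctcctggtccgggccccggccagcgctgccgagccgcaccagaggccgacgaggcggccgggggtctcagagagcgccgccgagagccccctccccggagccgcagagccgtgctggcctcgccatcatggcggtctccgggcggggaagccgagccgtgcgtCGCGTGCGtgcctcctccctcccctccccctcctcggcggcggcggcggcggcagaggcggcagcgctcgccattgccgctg
Perm1: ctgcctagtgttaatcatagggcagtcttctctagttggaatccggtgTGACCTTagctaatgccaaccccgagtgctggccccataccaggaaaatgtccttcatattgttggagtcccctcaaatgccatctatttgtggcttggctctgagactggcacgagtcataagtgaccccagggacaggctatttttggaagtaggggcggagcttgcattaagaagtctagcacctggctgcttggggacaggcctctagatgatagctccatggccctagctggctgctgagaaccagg

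The search covered both strands for the estrogen-related receptor motif AAGGTCA, the NRF-1 core CGCANGCG, the GABP site CCGGAAG, the cyclic AMP response element TGACGTCA and the MEF2 site. The capitals mark an AAGGTCA match in Perm1, 202 bases upstream of the start and on the opposite strand. They mark a pair of NRF-1 cores in Esrra, at 140 and 95 bases upstream, a single one in Nrf1 at 32 bases and a GABP site in Tfam at 47 bases. The Gabpa window, not shown, held an NRF-1 core and a GABP site, and single MEF2 matches lay in an Esrrg and an Nrf1 window. The Ppargc1a window held none of the 5 motifs, which says only that these letters are not in this stretch. Of 32851 windows of this length over all genes, 4.72% held the receptor motif, 8.21% the NRF-1 core, 8.86% the GABP site, 1.79% the cyclic AMP element and 3.19% the MEF2 site. A match is a description of the sequence, and binding was not measured.

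Because TPM is corrected for length, levels can be set beside each other. Over the 17 mice Perm1 ranged from 195 to 308 TPM and Esrra averaged 131 ± 10.1 TPM (SD), and their means lay above 97.4% and 95.8% of the genes tested. Ppargc1a followed with 21.9 ± 13.6 TPM and Tfam with 18.1 ± 1.38 TPM, a pair whose values overlapped. Gabpa (12.2 ± 1.67 TPM), Esrrg (11.5 ± 2.57 TPM) and Esrrb (11.3 ± 1.20 TPM) lay within each other's spread, as did Ppargc1b (6.30 ± 1.39 TPM) and Pprc1 (6.03 ± 0.870 TPM). Nrf1 was the lowest at 2.50 ± 0.341 TPM. By an estimate of depth from the steps between low values, each member's value rested on at least 444 reads in every mouse, with 1618 to 9871 reads for Ppargc1a and 525 to 775 for Nrf1.

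**Figure D1:**
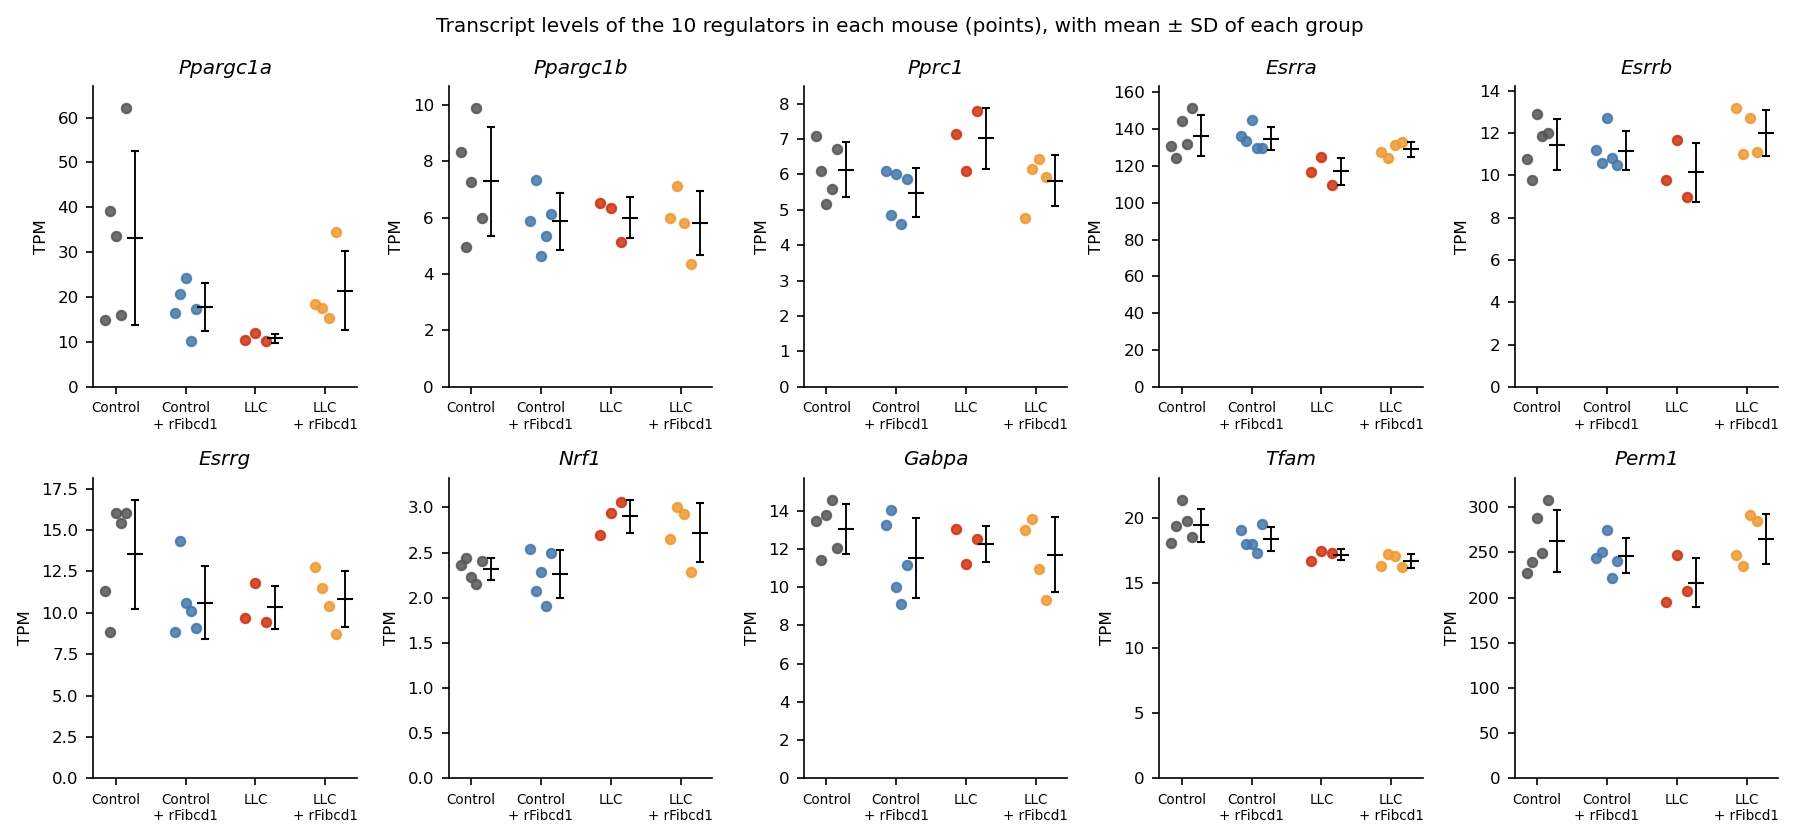
Levels of the 10 genes in TPM (vertical axis, starting at 0) in every mouse of the 4 groups; points are mice and bars are group mean ± SD. The 3 LLC mice lie below every Control mouse in Ppargc1a and Tfam and above every Control mouse in Nrf1, and LLC + rFibcd1 replicate 4 stands above the rest of its group in Ppargc1a at 34.5 TPM.

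Ppargc1a varied more between mice of a group than most genes. Its residual standard deviation on the log2 scale was 0.585, higher than in 94.1% of genes tested, whereas Tfam (0.0669) was among the steadiest, higher than in only 8.28%. In Control mice the spread of Ppargc1a was 58.4% of the mean, in LLC mice 8.97%.

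LLC against Control asks what the tumor does to these regulators. Ppargc1a was lower in LLC mice, by a fold of 0.394 on the log2(TPM + 1) scale, and Esrra and Tfam were lower by smaller steps, while Nrf1 was higher. These 4 of 10 members passed the test, 1 higher and 3 lower, by limma with Benjamini-Hochberg adjustment over all genes. Among all 13305 genes 35.8% passed in this comparison, 29.7% higher and 6.02% lower, so the share of members that passed was close to the share of all genes, with more of them on the lower side. The median change of the 10 members was -0.192 on the log2(TPM + 1) scale, against 0.16 for all genes tested, and 8 of 10 changes were below 0. Of the members, 3 had no overlap between the groups (Ppargc1a and Tfam lower, Nrf1 higher), beside 40.2% of all genes. Dunn's rank test passed 0 of the 13305 genes after adjustment in this and every other comparison of single groups, so its counts of 0 say nothing of the members or lists. Without LLC replicate 3 limma passed 24 of all genes (0.18%) in place of 4759, so calls lost without that mouse were lost widely. Without LLC replicate 1 it passed 17.1% of all genes, with 499 lower in place of 801, and no member passed.

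Ppargc1a, the exercise- and cold-responsive coactivator, measured 14.8, 39.2, 33.6, 16.1 and 62.1 TPM in Control replicates 1 to 5. In LLC replicates 1 to 3 it measured 10.4, 11.9 and 10.1 TPM. The LLC values were tightly grouped and all lay under the lowest Control mouse, while the Control mice were spread widely. The log2 change was -1.34 (95% interval -2.19 to -0.493, adjusted p by limma 0.0205), a fold of 0.394 (0.219 to 0.710). A two-sided exact permutation test of Ppargc1a alone gave an unadjusted p of 0.0357, where 56 regroupings allow no value under 0.0179. Without LLC replicate 3 the change was -1.30 with an adjusted p of 0.0862, and without LLC replicate 1 it was -1.32 with 0.0628, so the call needed both mice.

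Esrra, the receptor through which PGC-1alpha reaches many respiratory genes, measured 131, 124, 144, 132 and 151 TPM in Control and 117, 125 and 109.9 TPM in LLC mice. LLC replicate 2, at 124.7 TPM, lay just above Control replicate 2, at 124.4 TPM, and the other LLC mice lay below all Control mice. The log2 change was -0.219 (95% interval -0.349 to -0.0888, adjusted p by limma 0.0168), a fold of 0.859. The exact permutation p was 0.0714, unadjusted. Without LLC replicate 1 or LLC replicate 3 the adjusted p of Esrra rose to 0.0516 and 0.0992.

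Tfam, the mitochondrial DNA packaging and transcription factor, measured 18.1, 19.4, 21.4, 19.8 and 18.5 TPM in Control and 16.7, 17.5 and 17.4 TPM in LLC mice. All 3 LLC mice were below all 5 Control mice, by a small margin. The log2 change was -0.166 (95% interval -0.279 to -0.0528, adjusted p by limma 0.0272; exact permutation p 0.0357, unadjusted). Without any one of Control replicate 3, Control replicate 4, LLC replicate 1 or LLC replicate 3 the adjusted p of Tfam lay between 0.0530 and 0.0985, and with only these groups in the fit it was 0.0543.

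Nrf1, a respiratory factor of nuclear genes for mitochondrial proteins, measured 2.36, 2.44, 2.23, 2.15 and 2.40 TPM in Control and 2.70, 2.94 and 3.06 TPM in LLC mice. Every LLC mouse was above every Control mouse. The log2 change was 0.234 (95% interval 0.0617 to 0.406, adjusted p by limma 0.0365), and the exact permutation p was 0.0179, unadjusted and the smallest the design can give. Less the all-gene median, the rise of Nrf1 was 0.0733. The call was lost in 7 of 17 fits that left out a mouse, with an adjusted p of up to 0.145 without LLC replicate 3.

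The remaining members did not pass. Perm1, the muscle effector, measured 228, 239.8, 288, 249.5 and 308 TPM in Control and 195, 247 and 207 TPM in LLC mice, a log2 change of -0.277 with an adjusted p of 0.0562 by limma. LLC replicate 2 lay among the Control mice. The other receptors changed by -0.163 (Esrrb, adjusted p 0.187) and -0.332 (Esrrg, 0.167), and the other coactivators by -0.218 (Ppargc1b, 0.345) and 0.169 (Pprc1, 0.247). Gabpa changed by -0.0807 (adjusted p 0.659). Gabpa shares 397 exonic bases with Atp5j, Pprc1 177 with Ldb1 and Esrra 73 with Trmt112, each on the opposite strand, and no source says whether counting used the strand, so reads from the shared bases cannot be told apart.

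**Figure D2:**
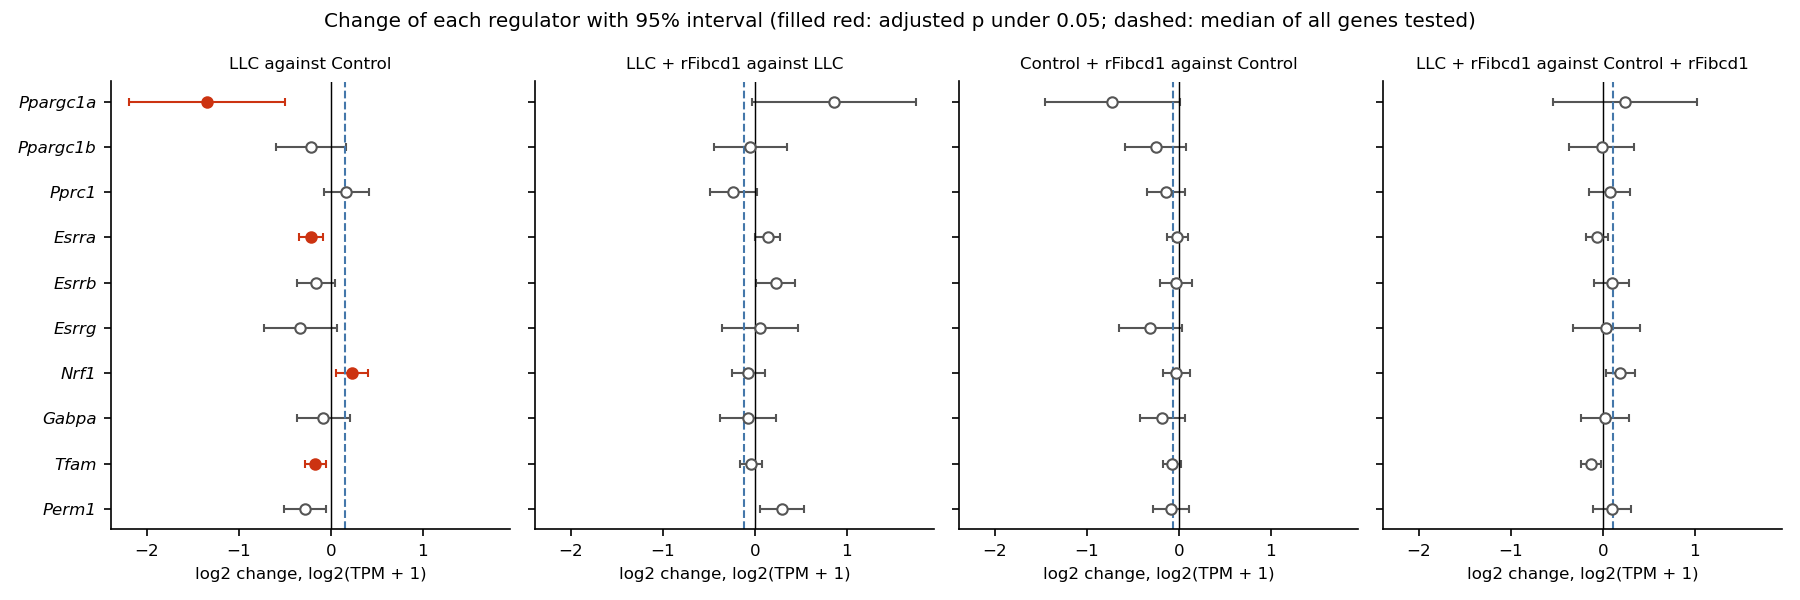
Log2 change of each gene (horizontal axis, log2(TPM + 1) scale) with its 95% interval in 4 comparisons; filled red points have an adjusted p under 0.05 and the dashed line is the median change of all genes tested. Ppargc1a, Esrra, Tfam and Nrf1 passed in LLC against Control, and none passed in the other 3 panels.

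The calls were repeated on other scales, because the median change of all genes in LLC against Control was 0.16 on the deposited scale. It became 0.00546 with median-ratio factors, -0.0989 with quantile normalization and 0.349 when each library was scaled to 12 myofiber markers. Ppargc1a stayed lower and past the threshold under each of them, from -1.60 under quantile normalization to -1.15 under myofiber scaling (adjusted p by limma 0.0234). Esrra was -0.0302 (adjusted p 0.730) and Tfam 0.0225 (0.851) under myofiber scaling, and Nrf1 was -0.0946 (0.422) under quantile normalization. Nrf1 also missed the threshold with median-ratio factors (0.0995, adjusted p 0.25), after rescaling without mitochondrially encoded genes (0.177, 0.107) and with no filter on low values (0.234, 0.0610). Perm1, not called on the deposited scale, passed in 3 of 13 other settings, with adjusted p by limma down to 0.0226. These were median-ratio factors, quantile normalization and rescaling without mitochondrially encoded genes. Perm1 also passed in 3 of 17 fits that left out a mouse. The signs of Tfam and Nrf1 thus turned as the all-gene median moved.

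Cell-type markers differed between the same groups. The summed level of 8 B cell markers, all detected, was 2.48 to 104 TPM in Control and 239.9 to 308 TPM in LLC mice, and that of 12 myofiber markers was 48600 to 53000 TPM in Control and 42710 to 44470 TPM in LLC mice. Macrophage markers (8 of 8 detected) summed to 157 to 273 TPM in Control and 366 to 452 TPM in LLC mice, and T cell markers to 2.99 to 23.1 TPM and 38.9 to 63.7 TPM. The sums of plasma cell markers (41.3 to 327 TPM and 369 to 553 TPM), neutrophil markers (1.95 to 14.5 TPM and 45.2 to 107 TPM) and fibroblast markers (596 to 857 TPM and 913 to 956 TPM) were also higher in LLC than in Control mice with no overlap. Most of the fibroblast sum was Dcn (mean 556 TPM in Control and 686 TPM in LLC mice). Means of Col1a1, Col3a1 and Lum were also higher in LLC mice, while Pdgfra (7.30 and 7.27 TPM) and Fap (3.33 and 3.13 TPM) were not. Brown fat is rich in PGC-1alpha, and Ucp1, which defines it, ranged from 0 to 62.3 TPM (median 0) in Control and was 0.0243, 5.96 and 213 TPM in LLC mice, in ascending order. The 7 brown adipocyte markers summed to 4453 to 4819 TPM in Control and 3618 to 4353 TPM in LLC mice, but nearly all of that sum was Cox8b (mean 3034 and 2706 TPM) and Cox7a1 (1534 and 1179 TPM), which muscle also makes. Cidea, another marker of brown fat, ranged from 11.3 to 57.5 TPM (median 12.7) in Control and was 10.6, 18.0 and 222 TPM in LLC mice, so a single highest value set the LLC mean of either gene. The 7 white adipocyte markers summed to 846 to 3119 TPM and 1936 to 8094 TPM. No marker of these lists was at 0 in all mice. The part of these cell types other than B cells and myofibers in the member changes was not tested. With a B cell score in the model Ppargc1a changed by -0.808 (adjusted p by limma 0.466) and none of the 10 members passed. That model left 10 of all genes past the threshold in place of 4759. The B cell marker sums of LLC and Control mice do not overlap, so the tumor and the B cell content cannot be told apart here. Mitochondrially encoded transcripts, which take part in the TPM sum, were 45.9% to 48.4% in Control and 41.3% to 44.3% in LLC mice.

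**Figure D3:**
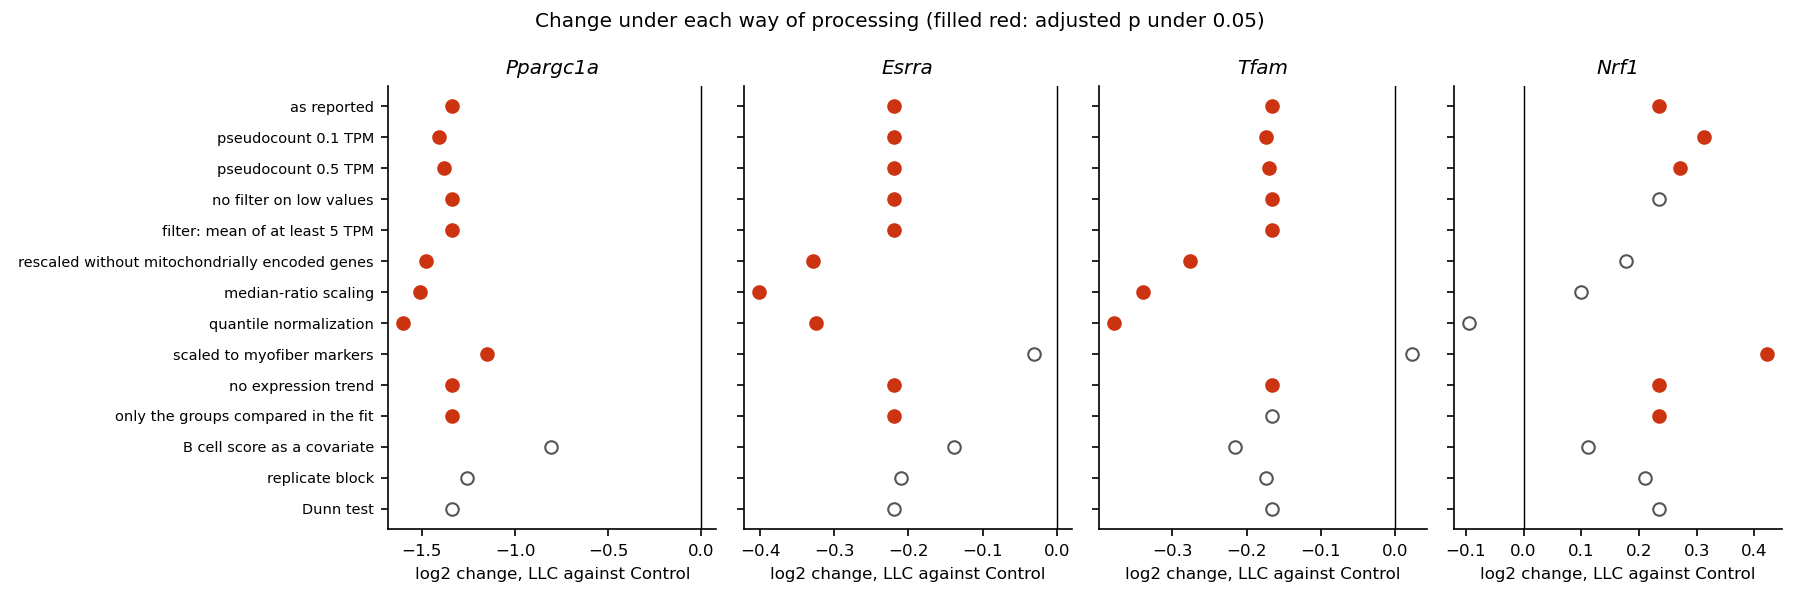
Log2 change between LLC and Control (horizontal axis) of the 4 members that passed, under each way of processing; filled red points have an adjusted p under 0.05. Ppargc1a keeps its direction in all settings, Tfam crosses 0 under myofiber scaling and Nrf1 under quantile normalization.

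LLC + rFibcd1 against LLC asks whether rFibcd1 moves the regulators in tumor-bearing mice. Ppargc1a was 18.4, 17.5, 15.4 and 34.5 TPM in LLC + rFibcd1 replicates 1 to 4, all above the 3 LLC mice. It was the only member without overlap here, beside 14.6% of all genes. The log2 change was 0.859 (95% interval -0.0295 to 1.75, fold 1.81), with an unadjusted p of 0.0571 both by limma and by the exact permutation test and an adjusted p of 0.227 by limma. Without LLC + rFibcd1 replicate 4, the mouse that stands apart, the change of Ppargc1a was 0.615 (adjusted p 0.470). In the LLC + rFibcd1 mice the B cell markers summed to 18.9 to 304 TPM and the myofiber markers to 42940 to 50080 TPM. Ucp1 ranged from 0 to 112 TPM (median 0.484) and Cidea from 12.1 to 84.0 TPM (median 14.4), both overlapping LLC mice. The 7 brown adipocyte markers summed to 3618 to 4353 TPM in LLC and 4605 to 4848 TPM in LLC + rFibcd1 mice, with no overlap. Cox8b (mean 2706 and 3332 TPM) and Cox7a1 (1179 and 1360 TPM), which muscle also makes, were higher with rFibcd1. Means of Ucp1, Cidea, Dio2, Elovl3 and Otop1 were lower. Their part in the Ppargc1a values was not tested.

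None of the 10 members passed by limma with adjustment, beside 0.113% of all genes. At an unadjusted p under 0.05 limma gave 3 members (Perm1, Esrra and Esrrb), beside 22.7% of all genes. The exact permutation test, run on the members alone in each comparison, gave 0, where 35 regroupings allow no p under 0.0286. Perm1 was 247, 235, 291 and 285 TPM in LLC + rFibcd1 mice, overlapping LLC replicate 2, with a log2 change of 0.292 (95% interval 0.0517 to 0.532, unadjusted p 0.0205 by limma). Esrra changed by 0.140 (adjusted p 0.215) and Esrrb by 0.226 (0.210). The intervals of Tfam (-0.156 to 0.0802) and Nrf1 (-0.252 to 0.108) spanned 0. The median change of the 10 members was 0.0105 against -0.115 for all genes, with 5 changes on each side of 0. This comparison shares the LLC mice with LLC against Control, so a value that is low in those 3 mice enters both.

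In tumor-free mice, Control + rFibcd1 against Control gave 0 of 10 members by limma with adjustment, beside 0% of all genes, and 0 at an unadjusted p under 0.05, beside 4.39%. The exact permutation test also gave 0. Ppargc1a was 16.4, 20.6, 24.3, 10.1 and 17.4 TPM in Control + rFibcd1 replicates 1 to 5, inside the lower part of the Control range, except replicate 4, which was under it. Its log2 change was -0.722 (95% interval -1.46 to 0.0142, adjusted p 0.927, exact permutation p 0.143). With single mice left out the change ranged from -0.95 to -0.452. All 10 members had a change below 0, with a median of -0.112 against -0.0603 for all genes, and no member was free of overlap, beside 0.812% of all genes. The Control mice are shared with LLC against Control.

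The interaction tests whether rFibcd1 had unlike effects with and without a tumor. For Ppargc1a it was 1.58 (95% interval 0.427 to 2.73), and for Perm1 0.378 (0.0658 to 0.689). These were 2 members with an unadjusted p under 0.05 (0.0106 and 0.0209 by limma), beside 8.58% of all genes. Neither passed after adjustment (adjusted p 0.331 and 0.429), and 0% of all genes did. The order of Ppargc1a was Control at 33.2 ± 19.4 TPM (SD, n = 5), LLC + rFibcd1 at 21.4 ± 8.78 TPM (SD, n = 4), Control + rFibcd1 at 17.8 ± 5.27 TPM (SD, n = 5) and LLC at 10.8 ± 0.969 TPM (SD, n = 3). Neighbours in this order overlapped.

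LLC + rFibcd1 against Control + rFibcd1 compares tumor-bearing and tumor-free mice that share no animal with the mock-treated pair. By limma with adjustment 0 of 10 members passed, beside 8.06% of all genes. At an unadjusted p under 0.05 there were 2, Nrf1 and Tfam, beside 28.5% of all genes, and the exact permutation test gave 1, Tfam. Tfam was 16.3, 17.3, 17.1 and 16.2 TPM in LLC + rFibcd1 and 19.1, 18.0, 18.0, 17.3 and 19.6 TPM in Control + rFibcd1 mice. It was the only member without overlap, beside 8.91% of all genes, and its log2 change was -0.130 (95% interval -0.233 to -0.0257, adjusted p 0.103, exact permutation p 0.0159). Endothelial markers summed to 192 to 229 TPM in Control + rFibcd1 and 258 to 286 TPM in LLC + rFibcd1 mice, with no overlap. Their part in the Tfam values was not tested. Nrf1 changed by 0.188 (adjusted p 0.117) and Ppargc1a by 0.238. The interval of Ppargc1a (-0.543 to 1.02) reached both ways, and without LLC + rFibcd1 replicate 4 its change was -0.00606. Under myofiber scaling the change of Tfam was 0.0894 (adjusted p 0.367), with the sign turned and an all-gene median of 0.334.

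In LLC + rFibcd1 against Control, Tfam alone passed, lower by a log2 change of -0.204 (95% interval -0.308 to -0.100, adjusted p by limma 0.0364). That is 1 of 10 members, on the lower side, beside 3.08% of all genes, of which 2.07% were higher and 1.01% lower. Ppargc1a changed by -0.484 (95% interval -1.26 to 0.297, adjusted p by limma 0.477) and Nrf1 by 0.162 (0.243), so a difference from Control in either is not excluded. Tfam was again the only member without overlap, beside 8.88% of all genes. Between the same groups endothelial markers summed to 201 to 239 TPM in Control and 258 to 286 TPM in LLC + rFibcd1 mice, and neutrophil markers to 1.95 to 14.5 TPM and 55.2 to 207 TPM, neither with overlap, and their part in the Tfam values was not tested. Myofiber markers overlapped (48600 to 53000 TPM and 42940 to 50080 TPM). Under myofiber scaling the change of Tfam was -0.0181 (adjusted p 0.875), and Nrf1 passed there, at 0.347 (0.0496), beside 16.3% of all genes and an all-gene median of 0.245. The call for Tfam was also lost without Control replicate 3 or 4 or any one of the 4 LLC + rFibcd1 mice (adjusted p 0.0611 to 0.0871). With all 7 tumor-bearing mice set against all 10 tumor-free mice, 3 of 10 members passed, beside 44.8% of all genes (38.8% higher, 5.98% lower). Nrf1 was higher by 0.206 (adjusted p 0.00899), and Tfam and Esrra were lower by -0.150 (0.00569) and -0.130 (0.0198). Ppargc1a changed by -0.491 with an adjusted p of 0.146. Under myofiber scaling Tfam was 0.0530 and Esrra 0.0733, and under quantile normalization Nrf1 was -0.0267, all 3 with the sign turned. The all-gene median of 0.13 itself moved to 0.334 and -0.0571 under these scalings. Nrf1 missed the threshold with median-ratio factors (0.0972, adjusted p 0.0927) and the B cell score (0.121, 0.246). Esrra missed it without LLC replicate 1 (adjusted p 0.0557) or LLC replicate 3 (0.0750), with the B cell score (0.383) and with the replicate block (0.0767).

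The balance of the 2 close relatives was compared as the log2 ratio of Ppargc1a to Ppargc1b, with 1 TPM added to each. Ppargc1a exceeded Ppargc1b in every mouse. The log2 ratio was 0.763, 2.75, 2.07, 0.648 and 3.17 in Control and 0.597, 0.815 and 0.854 in LLC mice. Control replicates 1 and 4 thus had ratios like those of LLC mice, and the difference of -1.12 did not pass (exact permutation p 0.25, adjusted over the 4 comparisons 0.5). In LLC + rFibcd1 mice it was 1.47, 1.18, 1.27 and 2.72, all above the LLC mice, a difference of 0.906 (exact permutation p 0.0857, adjusted 0.343). Control + rFibcd1 differed from Control by -0.470 (exact permutation p 0.444, adjusted 0.579), a value of -0.147 without Control replicate 5 and -0.778 without Control replicate 4. LLC + rFibcd1 differed from Control + rFibcd1 by 0.251 (exact permutation p 0.579, adjusted 0.579), and by -0.103 without LLC + rFibcd1 replicate 4.

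Whether the other members follow Ppargc1a from mouse to mouse was asked with deviations from the group means, so that group differences play no part. Perm1 had the highest correlation (Pearson r 0.650, permutation p 0.0186; Spearman rho 0.642, p 0.0162; n = 17 mice). Esrra had r 0.556 (permutation p 0.0814; rho 0.542, p 0.0543). Ppargc1b ran the other way (r -0.621, permutation p 0.0467; rho -0.527, p 0.0741). None of the 9 pairs passed after adjustment over the 9 (adjusted permutation p 0.167 for Perm1, 0.210 for Ppargc1b and 0.244 for Esrra), and the remaining 6 lay between r -0.289 (Gabpa) and 0.0942 (Pprc1), all with adjusted permutation p of at least 0.604. Without the 2 mice farthest from the median of Ppargc1a, Control replicates 2 and 5, r was 0.674 for Perm1, 0.681 for Esrra and -0.442 for Ppargc1b. The level of Tfam had r 0.0382 with Ppargc1a, and 0.350 without those mice. With libraries scaled to myofiber markers, r without the 2 mice farthest from the median on that scale was 0.509 for Perm1, 0.277 for Esrra and -0.327 for Ppargc1b.

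**Figure D4:**
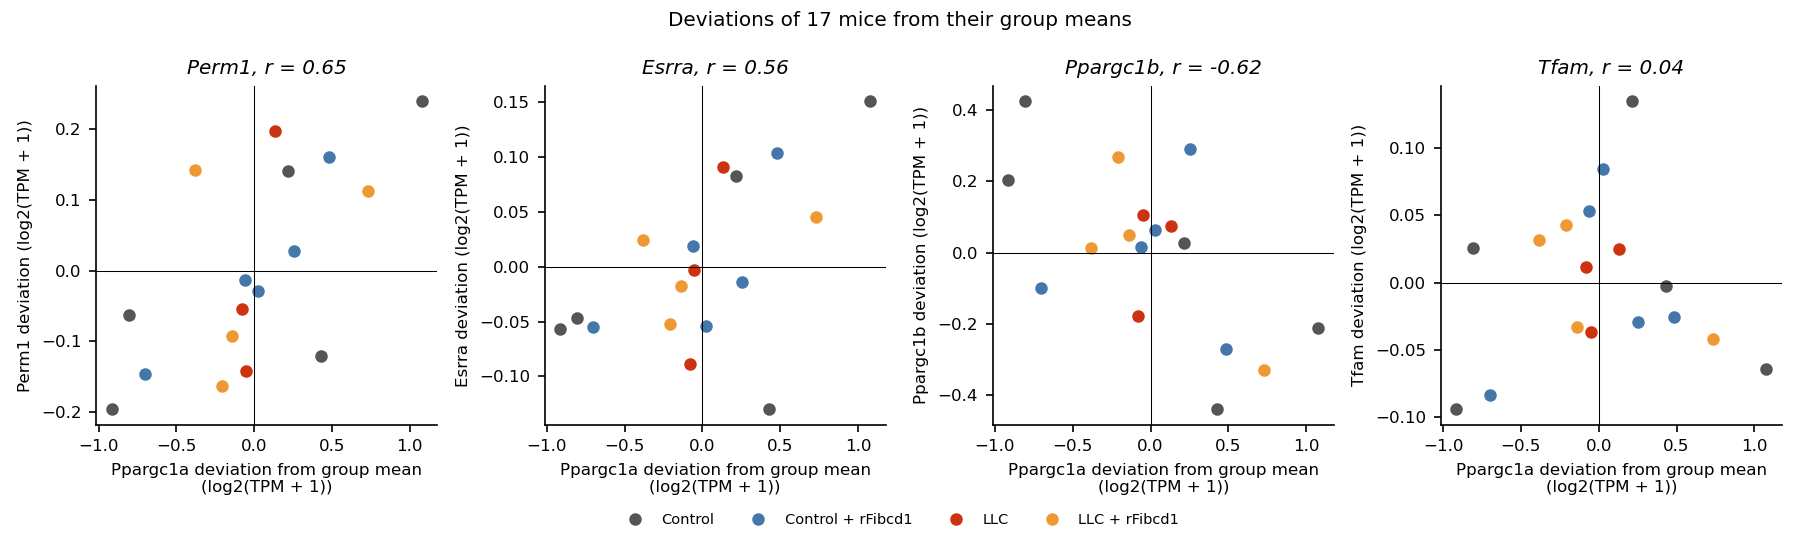
Deviation of each of 17 mice from its group mean on the log2(TPM + 1) scale, Ppargc1a on the horizontal and Perm1, Esrra, Ppargc1b or Tfam on the vertical axis; colors are groups. Points rise together for Perm1 (r 0.65) and Esrra (r 0.56), fall for Ppargc1b (r -0.62) and have r 0.04 for Tfam.

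Across the 17 samples, groups included, the genes outside the set with the profile most like Ppargc1a were Ppara (Pearson r 0.836), the fatty acid-sensing nuclear receptor, Pank4 (0.793), Lpin1 (0.793), a lipid phosphatase, Alpl (0.779) and Mul1 (0.773), a ubiquitin ligase of the mitochondrial outer membrane. Lpin1 averaged 163 TPM in Control, 142 TPM in Control + rFibcd1, 104 TPM in LLC and 119 TPM in LLC + rFibcd1 mice. For Perm1 they were Best3 (0.883), Coq10a (0.865), a coenzyme Q-binding protein, 1810014B01Rik (0.855), Klhdc2 (0.854) and Lrrc14b (0.852). These are the highest of all genes tested and share libraries with the genes they resemble, so they are a description.

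Genes above and below the coactivators were read from 10 lists in LLC against Control, beside the 29.7% of all genes that were higher and the 6.02% that were lower. Upstream activators gave 2 higher and 1 lower of 16 tested, with Crtc2, a coactivator of CREB, at 0.492 (adjusted p by limma 0.00969), Crtc1 at 0.190 (0.0461) and the kinase Camk2a at -0.255 (0.0379). Camk4 of that list was not tested, with at most 0.288 TPM. Repressors of the coactivators gave 3 higher of 10, among them Kat2a, the acetyltransferase that silences PGC-1alpha, at 0.292 (0.0149), Mybbp1a at 0.158 (0.0282) and Zfp746, which represses Ppargc1a, at 0.356 (0.0194). The median of the repressors was 0.0451, with 5 of 10 above 0, against 0.16 for all genes. Median-ratio scaling gave 0 higher and 2 lower repressors, beside 2078 higher and 1863 lower of all genes. Quantile normalization gave 0 higher and 5 lower repressors and 1 higher and 10 lower activators, beside 1510 higher and 3175 lower of all genes and an all-gene median of -0.0989. Of 9 nuclear receptor partners 0 passed by limma, 3 of them with an unadjusted p under 0.05, beside 48.3% of all genes. These were Ppara at -0.474 (adjusted p 0.0758), Pparg at 0.878 (0.0552) and Rxra at 0.157 (0.0558). The list of GABP beta subunits and NRF namesakes gave 1 higher of 4, Gabpb2 at 0.416 (0.0165), beside Gabpb1 at 0.170 (0.114) and Nfe2l1 at -0.0275 (0.710). Without LLC replicate 3 the activators, repressors and GABP list each gave 0, as did the latter 2 lists without LLC replicate 1, beside 0.18% and 17.1% of all genes. All 3 lists gave 0 with the B cell score (10 of all genes past) or the replicate block (5 of all genes).

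Known targets of PGC-1 and the estrogen-related receptors were lower in 13 of 19, and all 19 had a change below 0, with a median of -0.228. Among the 13 were Cs, citrate synthase, at -0.213, Sod2, mitochondrial superoxide dismutase, at -0.272 (adjusted p by limma 0.00808), and Mb, myoglobin, at -0.299 (0.00996). Nuclear-encoded respiratory chain subunits were lower in 17 of 18, with a median of -0.253, led by Cox7a1 at -0.380 (0.0046), Sdhb at -0.306 (0.00735) and Ndufs1 at -0.357 (0.00735). Genes of mitochondrial DNA replication and transcription gave 1 higher and 4 lower of 16 (Lrpprc at -0.261, Mterf2 at -0.326 and Tefm at -0.207 among them). Mitochondrially encoded proteins gave 7 lower of 13, with mt-Nd4l at -0.254, mt-Cytb at -0.161 and mt-Nd4 at -0.182. Mitochondrial dynamics gave 4 lower of 6, with the fusion genes Mfn1 at -0.234 and Opa1 at -0.218 and the fission adaptor Mff at -0.118. None of 6 slow fiber genes passed by limma, and none had an unadjusted p under 0.05, beside the same 48.3%. Without LLC replicate 3 the targets gave 0 lower of 19 and the respiratory subunits 1 of 18, where 9 of all 13305 genes were lower in place of 801. The mitochondrial DNA, mitochondrially encoded and dynamics lists gave 0 lower without that mouse. Under myofiber scaling the targets gave 0 and the respiratory subunits 1, with medians of -0.0393 and -0.0641, beside 34 of all genes lower and an all-gene median of 0.349. Both lists thus lay below the all-gene median on either scale. With the B cell score or the replicate block both gave 0, beside 10 and 5 of all genes.

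In LLC + rFibcd1 against LLC no gene of any list passed by limma, beside 0.113% of all genes. Of the 18 respiratory subunits all had a change above 0 (median 0.170), and of the 19 targets 18 did (median 0.130), against -0.115 for all genes. With single mice left out these medians ranged from 0.103 to 0.2 and from 0.0715 to 0.176. The LLC mice are shared with LLC against Control, so values that are low in those mice enter both comparisons. In LLC + rFibcd1 against Control + rFibcd1 the respiratory subunits gave 0 past the threshold of 18 (median -0.0271) and the targets 1 higher and 2 lower of 19 (median -0.0368), beside 8.06% of all genes past it and an all-gene median of 0.115. Mitochondrially encoded proteins gave 2 lower of 13 (median -0.083), with 0 of 13 above 0. Activators gave 1 lower of 16, and repressors, dynamics and slow fiber genes gave 1 higher each. In LLC + rFibcd1 against Control 3 of 18 respiratory subunits, 1 of 19 targets, 1 of 13 mitochondrially encoded proteins and 1 of 10 repressors were lower, beside 1.01% of all genes.

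**Figure D5:**
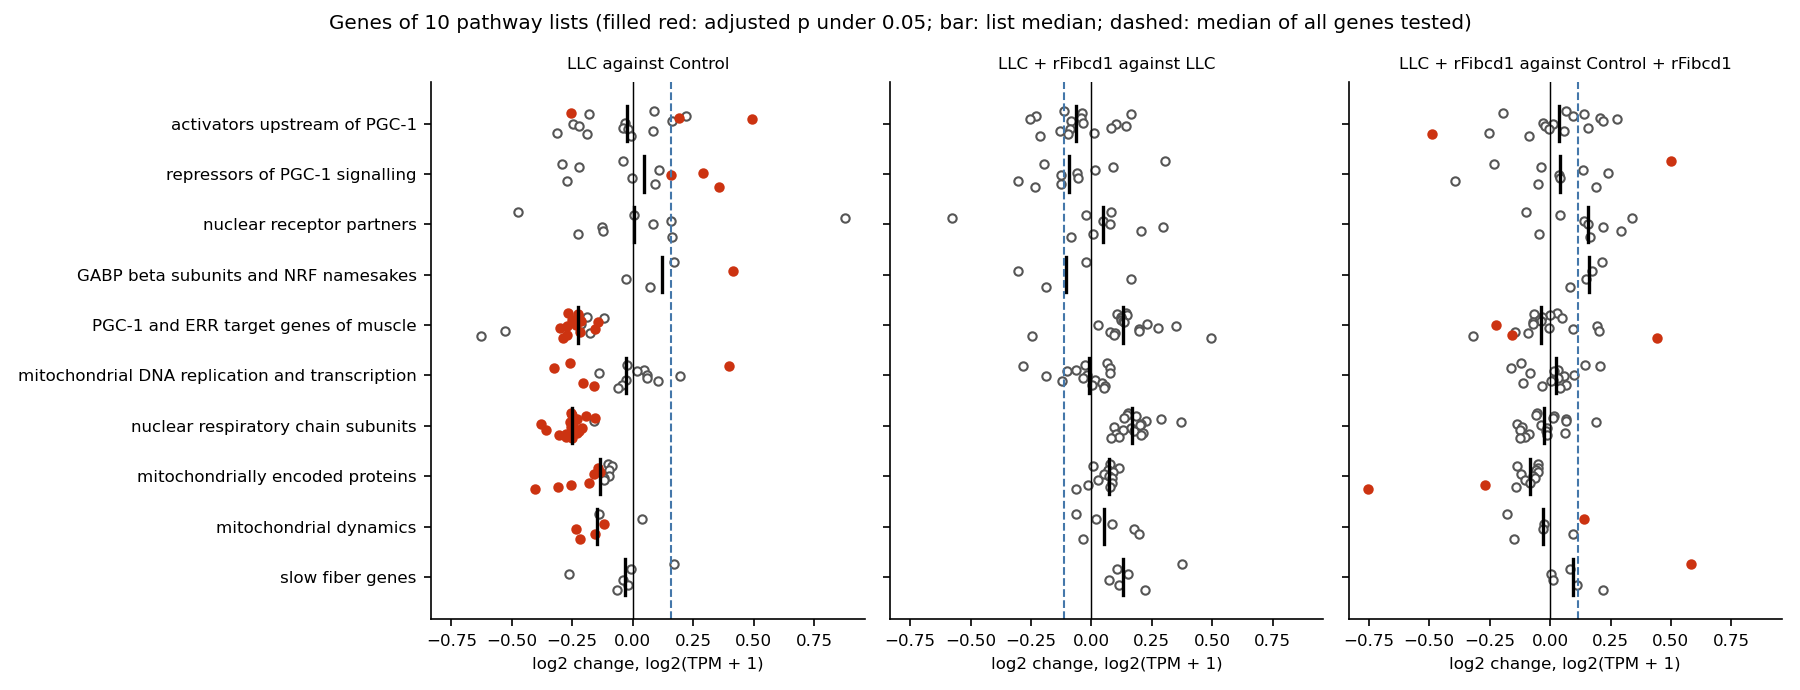
Log2 change (horizontal axis, log2(TPM + 1) scale) of every tested gene of 10 pathway lists in 3 comparisons; filled red points have an adjusted p under 0.05, black bars are list medians and the dashed line is the median of all genes. The targets (median -0.228) and respiratory subunits (median -0.253) lie below 0 in LLC against Control and mostly above 0 in LLC + rFibcd1 against LLC, which shares the LLC mice.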

How the data were processed

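RNA from 17 diaphragms was sequenced, and the authors mapped the reads to mouse build GRCm38 (mm10) with CLC Genomics Workbench. The authors computed TPM per gene symbol, and these were deposited; the annotation release and the strandedness of counting are not given in the sources used here, and the labels and the methods name different kits and instruments. Groups came from the sample titles, and 0 columns lacked a sample. Nothing marks a batch. With limma 3.58.1 in R 4.3.3, log2(TPM + 1) of 13305 genes (at least 1 TPM in at least 3 samples) was fitted with 4 group means, a mean-variance trend and 13 residual degrees of freedom. Tests were two-sided, adjusted by Benjamini-Hochberg over all genes, with 0.05 as the threshold. Fold changes on this scale understate low genes. The fit was tested on simulated data. The study used Kruskal-Wallis and Dunn tests, kept here as an alternative.

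Reads were estimated from steps between low values and GENCODE vM21 exon lengths (94.6% of symbols matched); 80.5% to 83.3% of low values fell within 0.02 of a whole read, against 4% by chance, giving 23.9 to 26.7 reads per TPM and kilobase; these depths are approximate and entered no test. Ratios and correlations used exact permutations or 100000 permutations within groups, in Python 3.11.15. All 10 members were named, with 3 genes of lowest p per list and 5 most correlated genes for Ppargc1a and Perm1. The members and lists were chosen with earlier results of these data known. Kyat1 and Kyat3 were matched as Ccbl1 and Ccbl2. Alternatives covered pseudocounts, filters, scalings, covariates, tests and leaving out each mouse.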

Additional observations from a re-analysis of the deposited data

Results flagged for a closer look

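Ppargc1a in LLC + rFibcd1 replicate 4, at 34.5 TPM, stood apart from the other 3 mice of its group. Its gap to the next mouse was 0.843 of the group's range, above Dixon's 95% critical value of 0.829 for 4 samples. It was the 1 such value in 30 groups of a member's values tested, where chance alone gives about 1 in 20. The LLC group, with 3 mice, was not tested in this way.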

How the results depend on the processing

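Over 2053 refits of the members' changes, 1977 kept their side of the threshold without a called value turning, 48 lost a call and 22 gained one. The other 6 changed sign with a call in the first fit or in the refit. Those 6 were Nrf1 under quantile normalization (-0.0267 in tumor-bearing against tumor-free mice, -0.0946 in LLC against Control) and, under scaling to myofiber markers, Tfam (0.053 and 0.0225 in the same comparisons), Esrra (0.0733) and Esrrb (0.186) in tumor-bearing against tumor-free mice. Esrrb was called only in that refit and not in the first fit (-0.0178, adjusted p by limma 0.838). A further 89 changes with no call on either side changed sign.

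In LLC against Control 8 members passed under quantile normalization (35.2% of all genes) and 0 with the B cell score (0.0752%), the replicate block (0.0376%) or Dunn's test (0%), and leaving out single mice gave 0 to 6. It was 0 without LLC replicate 1 or 3 (17.1% and 0.18% of all genes) and 2 without Control replicate 3 or 4 (26.5% and 26.1%). In LLC + rFibcd1 against Control + rFibcd1, 1 passed after rescaling without mitochondrially encoded genes, median-ratio scaling or quantile normalization (4.37%, 3.92% and 3.51% of all genes), and 3 under myofiber scaling (51.4%). In tumor-bearing against tumor-free mice 1 passed with the B cell score, beside 4.31% of all genes (2 to 3 when single mice were left out). In LLC + rFibcd1 against Control 0 passed with only those groups in the fit, with the replicate block or by Dunn's test (1.95%, 1.3% and 0% of all genes), and 0 to 1 when single mice were left out. The cause of these shifts was not tested. No pair passed in the correlations under myofiber scaling, and no ratio passed under any alternative, with differences of -1.43 to -0.802 for LLC against Control and 0.552 to 1.06 for LLC + rFibcd1 against LLC when single mice were left out.

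Whether replicate numbers pair the mice was not settled. Of 22 same-number pairs 4 had correlated deviations over 0.1 (-0.459 to 0.485), and pairs of unlike numbers were not compared. With the replicate block Ppargc1a changed by -1.26 in LLC against Control (adjusted p 0.0684), and 5 of all genes passed in place of 4759. With 3 LLC mice, a loss of call is not evidence of no change, and single mice decide several calls.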
